A study of Solanum lycopersicum with 31 samples.

Results

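Organelle-type ribosomal proteins build the bacterial-type ribosomes of chloroplasts and mitochondria, and most of their genes lie in the plant nucleus. Members were chosen by the annotated product: every gene whose product names a 30S ribosomal protein, a 50S ribosomal protein or a mitochondrial ribosomal protein. That rule found 75 genes among the 31142 genes counted in tomato (Solanum lycopersicum) leaf. By the word in the product, 39 were chloroplastic and 5 were mitochondrial, and 31 carried neither word and are called unlabelled here.

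A ribosome of this type has a small (30S) subunit, which holds the messenger RNA and checks codons, and a large (50S) subunit, which joins amino acids. In a green leaf the chloroplast ribosome makes the core proteins of the photosystems and the large subunit of rubisco from genes of the plastid genome, while most of its own proteins are made in the cytosol and imported. Mitochondrial ribosomes make a small set of respiratory chain proteins. Roles given below for single proteins come from the bacterial ribosome unless another source is named.

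Leaf RNA came from individual wildtype plants of the cultivar Moneymaker, grown in a chamber under ceramic metal halide and incandescent bulbs. Each plant grew below an organic solar cell filter or below a spectrally neutral control filter (C). The 3 solar cell filters are named by donor and acceptor material. FI is the blend FTAZ:IT-M and FP the blend FTAZ:PCBM, which share the polymer donor, and PI is PTB7-Th:IEICO-4F. Each of the 4 filters was used in an experiment labelled PPFD Controlled (PC), where PPFD is photosynthetic photon flux density, and in an experiment labelled Height Controlled (HC). This gave 8 groups, FI_PC to C_HC, of 4 libraries each, except PI_HC with 3 (31 in all). All groups share genotype, cultivar and tissue, and plant age was not given in the sources used here.

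Levels are given as CPM, the count of a gene scaled to a common library size. Per library, 13671052 to 15210356 fragments were counted in genes. The 45 pairs of libraries within a group differed by far more than sampling noise (chi-square per gene 9.98 to 227). Summed leaf markers (rubisco small subunit, chlorophyll-binding and photosystem proteins) (37 genes, 35 of them above 1 CPM) reached 27503 to 110441 CPM, and the 8 root markers (1 of them above 1 CPM) 0.487 to 3.66 CPM. Genes of green tissue were thus high in every library. Leaf was not told apart from other green organs by these markers. In 3 libraries the code in the deposited identifier is that of another group: the library labelled C_PC 4 carries the code otherwise used for PI_PC, PI_PC 4 that of FP_PC, and FP_PC 4 that of PI_HC. The labels were kept, and results are given with all libraries and without these 3, called the libraries in doubt.

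Of the 75 members, 65 passed the filter on low counts and were tested: 36 chloroplastic, 4 mitochondrial and 25 unlabelled. All 10 members left untested have more than 1 annotated transcript, with a mean count of at most 1.39 and no count above 5 in any library. The authors counted each exon record on its own, so fragments that overlap several records, as exons repeated for several transcripts do, were counted for none. The 3 tested members with more than 1 transcript had mean counts of 18.5 to 97.2, against 46.8 to 10049 in the 62 with 1 transcript. Levels are therefore compared between libraries and not between genes. The untested chloroplastic members are an S21 (LOC101245346), S9 (LOC101246242) and L9 (LOC101262888), and the untested mitochondrial member is the 50S protein HLP (LOC101260032), at 0 to 0.0723 CPM.

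The summed level of the chloroplastic members varied widely between plants of C_PC and of PI_PC. In the PC experiment the sums were 8719, 7359, 9041 and 3586 CPM in C_PC 1 to 4, and 6762, 6468, 5781 and 7334 CPM in FI_PC 1 to 4. They were 5085, 6828, 7988 and 7857 CPM in FP_PC 1 to 4, and 6843, 4086, 3540 and 10241 CPM in PI_PC 1 to 4. C_PC 4, PI_PC 2 and PI_PC 3 stood apart at the low end and PI_PC 4 was the highest of all 31 libraries, so C_PC and PI_PC overlapped completely.

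In the HC experiment the spread was smaller. The sums were 6965, 8010, 6194 and 7028 CPM in C_HC 1 to 4, 5767, 8135, 5665 and 5147 CPM in FI_HC 1 to 4, 6475, 6617, 5299 and 5999 CPM in FP_HC 1 to 4, and 6668, 6332 and 6703 CPM in PI_HC 1, 3 and 4. All 4 HC groups overlapped. Group means over all libraries ran from 6098 ± 594 CPM (SD, n = 4) in FP_HC to 7176 ± 2502 CPM (SD, n = 4) in C_PC, and neighbours in that order differed by less than the larger of their SDs. Without the libraries in doubt C_PC stood at 8373 ± 893 CPM (SD, n = 3) and PI_PC at 4823 ± 1770 CPM (SD, n = 3), and their libraries no longer overlapped. In bulk leaf RNA, fewer cells of a type and less RNA per cell cannot be told apart.

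**Figure D1:**
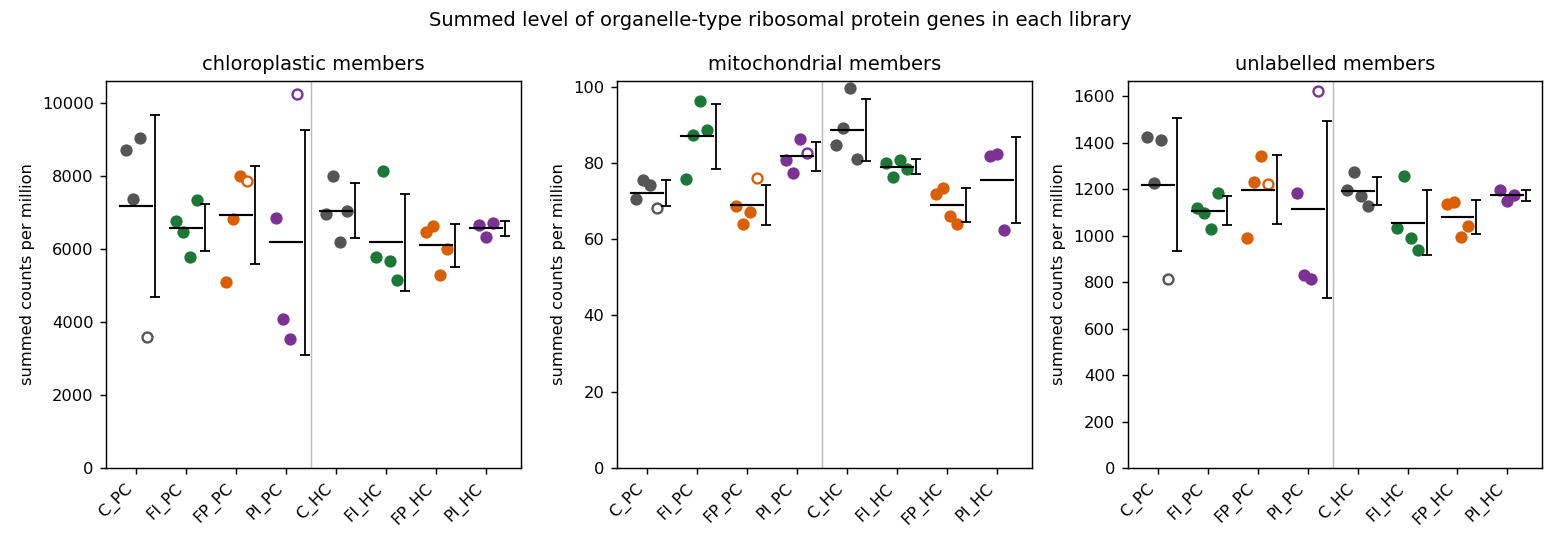
Summed CPM of the chloroplastic, mitochondrial and unlabelled members in each library (points), with the group mean (line) and SD (bar, n = 4, or 3 in PI_HC); open points are the 3 libraries in doubt. C_PC 4, PI_PC 2 and PI_PC 3 lie at 3540 to 4086 CPM for the chloroplastic members, below the 5085 to 10241 CPM of the other 28 libraries, and the mitochondrial sum stays between 62.4 and 99.6 CPM.

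The chloroplastic members moved as a block from library to library. The log2 level of each tested member was correlated over the 31 libraries with the sum of the other chloroplastic members, as a description. Pearson's r had a median of 0.939 over the 36 members (0.903 without the 2 libraries farthest from the median sum, and 0.961 within groups), and 32 of the 36 had an r above 0.8. All points of such a correlation share their library. The 30S and the 50S members, summed apart, followed the whole sum at r = 0.998 and r = 0.999. The lowest value of 33 members lay in C_PC 4, PI_PC 2 or PI_PC 3, and the highest value of 30 lay in PI_PC 4. The ratio of the highest to the lowest library was 3.14 at the median and 1.49 to 5.35 over the members.

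S6 alpha (LOC101249844, chromosome 8, 65512315 to 65515112 in build SL3.0, minus strand), a small-subunit protein, followed the block most closely, at r = 0.976. It read 163, 139, 164 and 67.4 CPM in C_PC 1 to 4, and 127, 69.3, 62.8 and 205 CPM in PI_PC 1 to 4. In the other 6 groups it lay between 86.6 and 145 CPM.

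The chloroplastic members with the highest mean CPM behaved alike. These were S5 (LOC101255358), which bears on decoding accuracy, an L12 (LOC101253247), part of the stalk that recruits elongation factors, S21 (LOC101248838), the early-assembling S17 (LOC101264910), and the messenger-binding S1 (LOC101247851). S5 read 824, 742, 836 and 404 CPM in C_PC 1 to 4 and 719.6, 482, 446 and 994 CPM in PI_PC 1 to 4. S1 read 486, 415, 469.9 and 182 CPM in the same C_PC libraries and 337, 199, 168 and 490.4 CPM in PI_PC. For both genes the groups overlapped, with C_PC 4 near the low PI_PC libraries and PI_PC 4 above all of C_PC. Over the 8 groups none of these 5 passed edgeR's quasi-likelihood test (adjusted p 0.917 to 0.979).

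Within the chloroplastic class the widest ranges were those of plastid-specific protein 3 of the small subunit (30S ribosomal protein 3, LOC101258952) and an L12 (LOC101252943), each with a highest-to-lowest ratio of 5.35. The first read 43.6, 34.1, 41.4 and 17.6 CPM in C_PC 1 to 4 and 27.2, 12.7, 10.4 and 55.4 CPM in PI_PC 1 to 4. These and the gene copies of the next paragraph were picked after their values were seen.

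**Figure D2:**
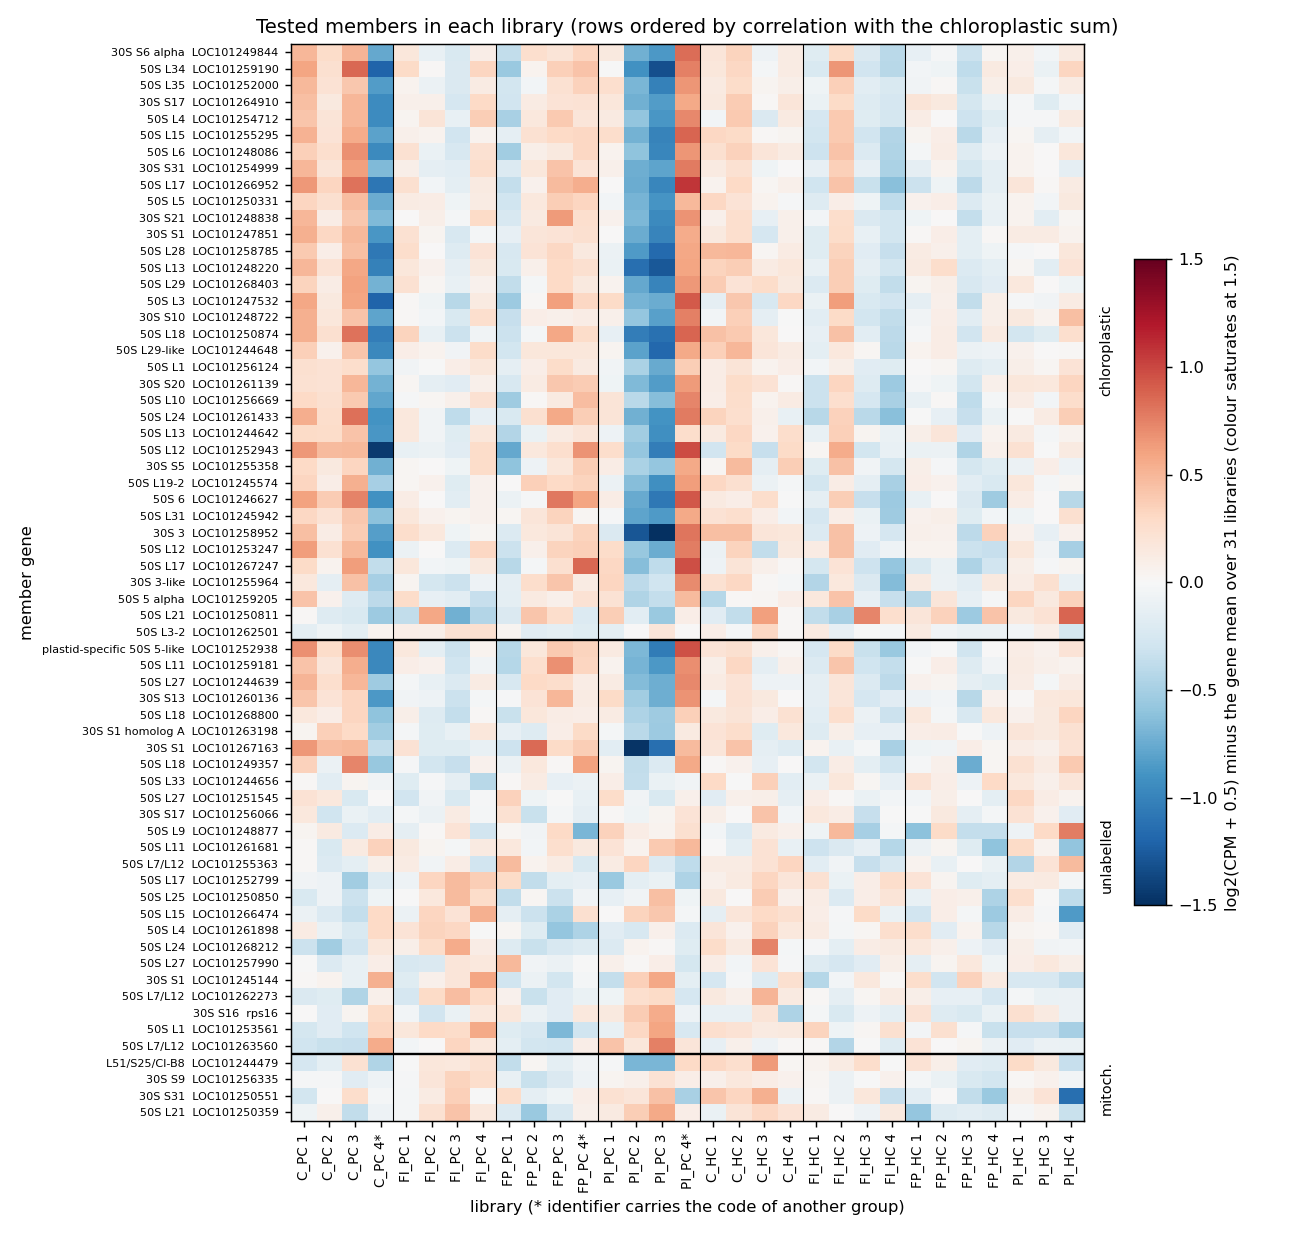
Each tested member (rows, by class and by falling correlation with the chloroplastic sum) in each library (columns, by group), as log2(CPM + 0.5) minus the gene's mean over the 31 libraries. Dark blue columns at C_PC 4, PI_PC 2 and PI_PC 3 and a red column at PI_PC 4 run through 32 chloroplastic rows with r above 0.8, and 3 of the 4 mitochondrial rows have an r below 0.

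A few chloroplastic members stood outside the block, and some have a sister gene inside it. L3 (LOC101247532), which starts assembly of the large subunit, read 373, 275, 377 and 108 CPM in C_PC 1 to 4 and 303, 154, 148 and 471 CPM in PI_PC 1 to 4 (r = 0.944). L3-2 (LOC101262501) read 33.3, 35.1, 33.2 and 38.2 CPM and 33.3, 36.9, 41.9 and 37 CPM in the same libraries, with r = -0.36 and a range of only 30.6 to 45.6 CPM over all 31. So L3-2 was not low in the libraries where L3 was lowest.

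Other copies differed less. 30S protein 3 had r = 0.901 and its relative labelled 30S protein 3-like (LOC101255964) r = 0.77. An L17 pair lies side by side on chromosome 6 (LOC101266952 at 48496163 to 48497864 and LOC101267247 at 48498398 to 48500440), with r = 0.965 and 0.827. An L12 pair lies side by side on chromosome 2 (LOC101253247 at 49996927 to 49997733 and LOC101252943 at 50001034 to 50001848), with r = 0.888 and 0.918. Near-identical copies can exchange or lose fragments in counting, so the split within a pair is uncertain. The remaining members with a low r were 50S protein 5 alpha (LOC101259205, r = 0.615, 2.14 to 4.52 CPM) and the multi-transcript L21 (LOC101250811, r = 0.189, 0.525 to 2.59 CPM), both at low counts.

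The unlabelled members fell on both sides of this pattern. Their sum followed the chloroplastic sum (r = 0.973, 812 to 1620 CPM), but only 6 of the 25 had an r above 0.8, and 13 had an r below 0. The 6 were a plastid-specific protein 5-like of the large subunit (LOC101252938, r = 0.972), an L11 (LOC101259181, r = 0.967), an L27 at the peptidyl transferase centre (LOC101244639, r = 0.95), S13 (LOC101260136, r = 0.91), an L18 (LOC101268800, r = 0.884) and an S1 homolog A (LOC101263198, r = 0.819). At the other end, an L7/L12 (LOC101263560) had r = -0.565 and an L1 (LOC101253561) r = -0.508. Apart from the word plastid-specific in the product of LOC101252938, the annotation gives no compartment for these genes. None is assigned here.

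Among the mitochondrial members 3 of 4 had an r below 0 with the chloroplastic sum, and their own sum had an r of 0.0273 with it. That sum was 70.4, 75.5, 74.1 and 68.2 CPM in C_PC 1 to 4, 75.7, 87.4, 96.1 and 88.6 CPM in FI_PC 1 to 4, 68.8, 63.9, 67.1 and 76.1 CPM in FP_PC 1 to 4, and 80.7, 77.3, 86.2 and 82.7 CPM in PI_PC 1 to 4. In HC it was 88.6 ± 8.06 CPM in C_HC, 79.0 ± 1.95 CPM in FI_HC, 68.9 ± 4.46 CPM in FP_HC (SD, n = 4 each) and 75.5 ± 11.4 CPM in PI_HC (SD, n = 3). FP had the lowest mean in each experiment. The member labelled L51/S25/CI-B8 family protein (LOC101244479), which the product does not place in a subunit, differed from the rest by following the chloroplastic sum in part (r = 0.579, 0.38 without the 2 farthest libraries). S31 (LOC101250551), a small-subunit protein, ranged from 3.31 to 11.6 CPM over all libraries. Over the 8 groups neither passed (edgeR adjusted p = 0.324 for L51/S25/CI-B8 and 0.534 for S31).

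Across the 8 groups, 5 of the 65 tested members passed edgeR's quasi-likelihood F test (adjusted p under 0.05), against 10.4% of all 16209 genes tested. They were 2 of 4 mitochondrial members, 3 of 25 unlabelled members and none of the 36 chloroplastic members, whose smallest adjusted p was 0.294 (L3-2). DESeq2's likelihood ratio test called the same 5 (16.9% of all genes). At an unadjusted p under 0.05, 9 members passed, against 24.8% of all genes.

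Mitochondrial S9 (LOC101256335, chromosome 10, 61661037 to 61666302, minus strand), a small-subunit protein that touches the peptidyl transfer RNA, was the steadiest of the 5. It read 26.8, 26.9, 24.1 and 25.8 CPM in C_PC 1 to 4, 26.8, 30.8, 34.4 and 32.8 CPM in FI_PC, 25.2, 21.4, 23.3 and 25.7 CPM in FP_PC, and 28, 28.6, 31.7 and 29.1 CPM in PI_PC. It read 28.8, 30.5, 29.3 and 28.4 CPM in C_HC, 27.8, 25.6, 27.1 and 28.5 CPM in FI_HC, 26.7, 25.3, 23.1 and 22.4 CPM in FP_HC, and 27.5, 28.4 and 26.5 CPM in PI_HC. FI_PC and PI_PC were high and both FP groups low, with FI_PC touching C_PC at its lowest library. The control group C_HC, at 28.4 to 30.5 CPM, lay within the range of PI_PC (28 to 31.7 CPM). Over the 8 groups the F test gave an edgeR adjusted p of 0.0138, and of 0.00475 to 0.0354 with each library left out in turn. The order of the means ran from FP_PC (23.9 ± 1.94) and FP_HC (24.4 ± 1.98) to PI_PC (29.4 ± 1.63) and FI_PC (31.2 ± 3.31 CPM, SD, n = 4 each).

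Mitochondrial L21 (LOC101250359, chromosome 2, 43523953 to 43528330, plus strand), a large-subunit protein, had the same groups at its ends. It read 19.5, 21.7, 15.7 and 19.4 CPM in C_PC, 20.1, 24.1, 27.7 and 23.0 CPM in FI_PC, 17.7, 13.8, 17.3 and 21.6 CPM in FP_PC, and 22.5, 26.7, 30.7 and 22.0 CPM in PI_PC. It read 19.0, 23.4, 25.5 and 23.7 CPM in C_HC, 22.4, 20.5, 19.4 and 22.8 CPM in FI_HC, 13.5, 17.8, 18.3 and 17.9 CPM in FP_HC, and 20.2, 21.3 and 16.1 CPM in PI_HC. Every PI_PC library lay above every C_PC library, and every FP_HC library below every C_HC library, but edgeR called L21 in neither comparison. The control group C_HC, at 19.0 to 25.5 CPM, overlapped FI_PC and PI_PC. Over the 8 groups the F test gave an edgeR adjusted p of 0.0291. The call was lost without PI_PC 2 (adjusted p = 0.0585), PI_PC 3 (0.0722) or FP_HC 1 (0.0514, all edgeR).

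The unlabelled L1 (LOC101253561, chromosome 12, 4825546 to 4835723, plus strand), the stalk protein beside the exit site for transfer RNA, separated PI_HC from its control. It read 13.4, 13.4 and 12 CPM in PI_HC and 20.6, 20, 18.9 and 19.0 CPM in C_HC, with no overlap. In PC it read 14.2, 15.2, 13.8 and 21.6 CPM in C_PC, 19.4, 21.2, 20.9 and 25.7 CPM in FI_PC, 15.0, 14.4, 10.6 and 13.8 CPM in FP_PC, and 15.8, 21.3, 26.2 and 14.4 CPM in PI_PC. In HC it read 21.7, 16.4, 17.5 and 20.4 CPM in FI_HC and 16.7, 20.3, 16.9 and 13.5 CPM in FP_HC. C_PC 4 lay above the other libraries of its group and PI_PC 4 was the lowest of its own. Over the 8 groups the F test gave an edgeR adjusted p of 0.0245. The call was lost without PI_HC 4 (0.0556, edgeR).

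The other 2 calls were the least steady. The unlabelled L17 (LOC101252799, chromosome 8, 57069468 to 57076876, plus strand), a protein at the end of the peptide tunnel, read 31.6, 42.1, 46.8 and 43.2 CPM in FI_PC and 32.1, 31.7, 23.1 and 29.3 CPM in C_PC. It read 22.5, 30.2, 31.1 and 24.2 CPM in PI_PC, 40.8, 25.7, 30.2 and 30.6 CPM in FP_PC, 35.4, 36.9, 41.9 and 38.1 CPM in C_HC, and 29.5 to 40.4 CPM in the other HC groups (F test over the 8 groups, edgeR adjusted p = 0.0431). The unlabelled L24 (LOC101268212, chromosome 8, 60048591 to 60053201, minus strand), an early assembly protein, read 18.1, 20.8, 25.2 and 18.5 CPM in FI_PC, 13.5, 11.7, 13.9 and 19.3 CPM in C_PC, and 20.8, 18.7, 29.0 and 16.7 CPM in C_HC. It lay between 13.4 and 19.0 CPM in the other 5 groups (F test over the 8 groups, edgeR adjusted p = 0.0485). In both genes FI_PC lay high and overlapped C_PC by 1 library. Of the 31 fits that each left out a library, 23 lost the call of L17 and 28 that of L24, and without the libraries in doubt L17 was at 0.074 (edgeR adjusted p).

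**Figure D3:**
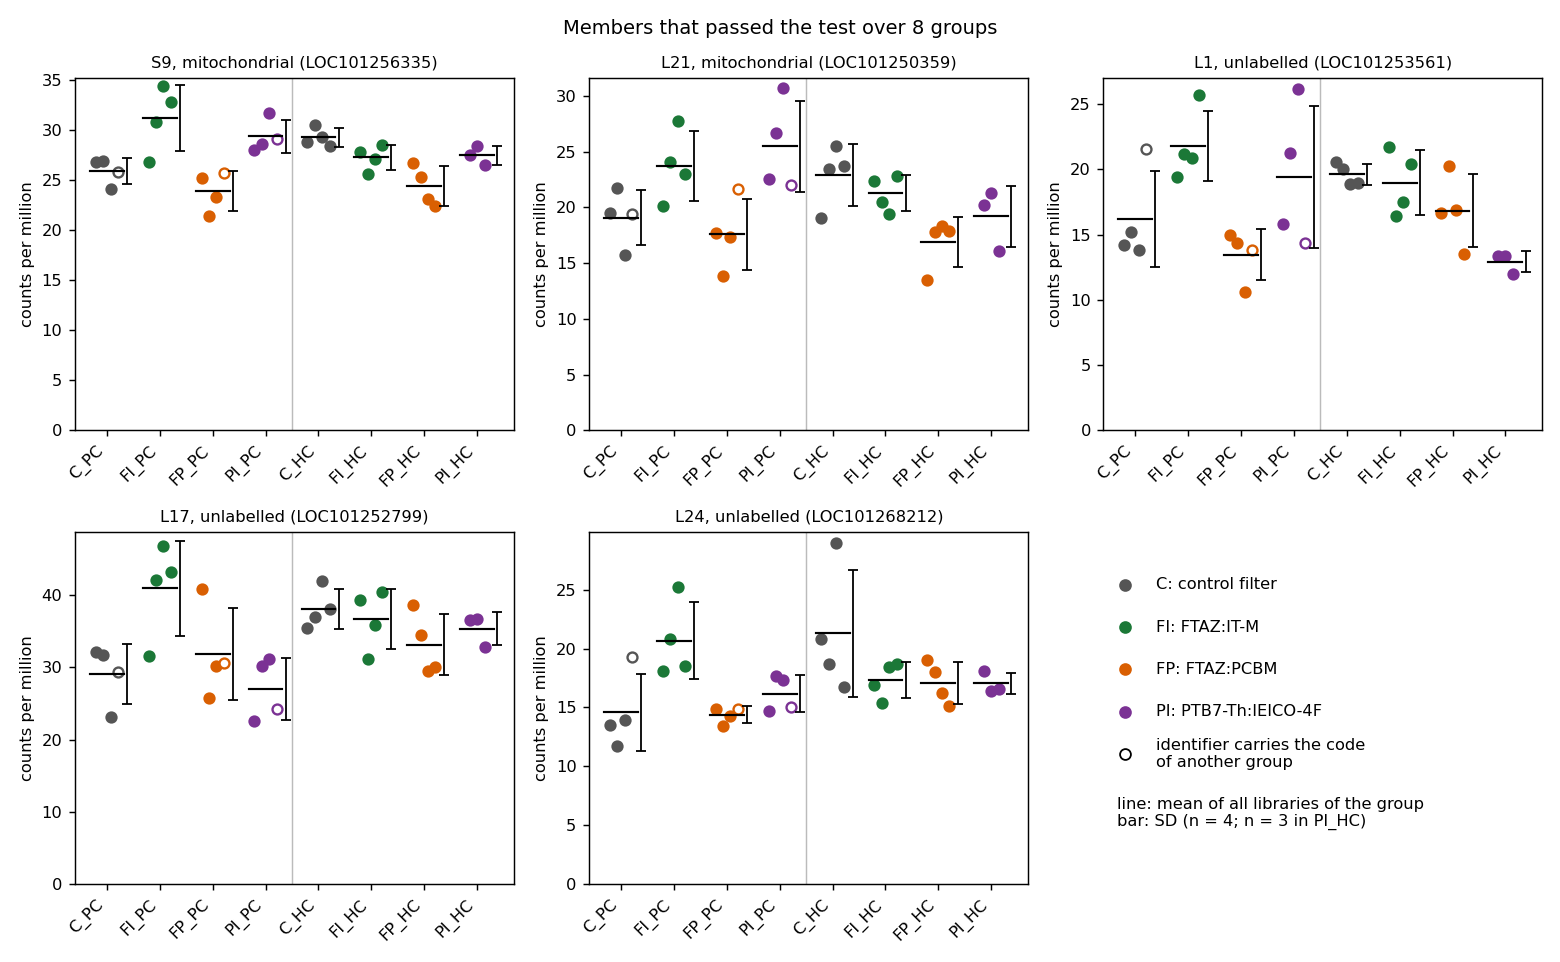
CPM of the 5 members that passed the test over 8 groups, in each library (points), with the group mean (line) and SD (bar, n = 4, or 3 in PI_HC); open points are the libraries in doubt. Mitochondrial S9 and L21 are high in FI_PC and PI_PC, with the control group C_HC overlapping both, and low in FP_PC and FP_HC. L1 is low in all 3 PI_HC libraries (12 to 13.4 CPM).

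The next 7 members by that test did not pass. They were an L11 (LOC101261681, edgeR adjusted p = 0.141), an L4 of the peptide tunnel (LOC101261898, 0.164), 2 L7/L12 stalk proteins (LOC101262273, 0.185, and LOC101263560, 0.188), an L33 (LOC101244656, 0.27), the chloroplastic L3-2 (0.294) and an L25, which binds 5S ribosomal RNA (LOC101250850, 0.306).

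The filters were then compared with the control of the same experiment. With all libraries no member passed edgeR's test in any of the 6 comparisons. In the PC experiment, FI_PC against C_PC called 2.26% of all genes, FP_PC 0% and PI_PC 0.296%, and at an unadjusted p under 0.05 the members passing were 8, 1 and 4 of 65, against 15.8%, 4.03% and 14.5% of all genes. All 8 of FI_PC were higher (8.22% of all genes). In the HC experiment, FI_HC against C_HC called 0% of all genes, FP_HC 0.037% and PI_HC 2.1%, with 1, 5 and 1 members at an unadjusted p under 0.05, against 5.19%, 6.75% and 15.9% of all genes. All 5 of FP_HC were lower (3.51% of all genes). DESeq2's Wald test called 1 member in FI_PC against C_PC (L17, log2 fold change 0.48 ± 0.15 SE, DESeq2 adjusted p = 0.0336) and 1 in PI_HC against C_HC (L1, -0.60 ± 0.19 SE, 0.0399), and none in the other 4. It called 4.17%, 0.0168% and 2.77% of all genes in the 3 PC comparisons and 0.0656%, 0.0803% and 4.41% in the 3 HC comparisons.

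Of the 36 chloroplastic members, those with a negative log2 fold change were 32 in FI_PC, 22 in FP_PC, 31 in PI_PC, 32 in FI_HC, 35 in FP_HC and 29 in PI_HC. These members moved as a block between libraries, so their signs are not separate results. Their median log2 fold change against the control was -0.15 in FI_PC, -0.04 in FP_PC, -0.24 in PI_PC, -0.25 in FI_HC, -0.21 in FP_HC and -0.09 in PI_HC, while that of all genes was within 0.03 of 0. The PC medians rested on single libraries: FI_PC was at -0.35 without C_PC 4 and 0.03 without C_PC 3, FP_PC at -0.28 and 0.09 without the same libraries, and PI_PC at -0.62 without PI_PC 4 and -0.04 without PI_PC 3. With each library left out in turn, the HC medians ran from -0.42 to -0.16 in FI_HC, -0.27 to -0.14 in FP_HC and -0.13 to -0.01 in PI_HC. For the mitochondrial members it was 0.28, -0.05, 0.16, -0.16, -0.39 and -0.27 in the same order. The 3 PC comparisons share the C_PC libraries and the 3 HC comparisons share those of C_HC. In FI_PC against C_PC the 4 mitochondrial members had values of 0.12 to 0.32, and in FP_HC against C_HC of -0.60 to -0.26, neither with a call.

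Next, the experiments were compared under the same filter. With all libraries no member passed edgeR's test in C_HC against C_PC (0.308% of all genes called), FI_HC against FI_PC (0.111%), FP_HC against FP_PC (0.0494%) or PI_HC against PI_PC (3.49%). At an unadjusted p under 0.05 the members passing were 6, 2, 1 and 5 of 65, against 13.1%, 6.16%, 8.09% and 20.4% of all genes. All 6 of C_HC against C_PC were higher (6.95% of all genes). DESeq2 called 1 member, L1 in PI_HC against PI_PC (log2 fold change -0.60 ± 0.19 SE, DESeq2 adjusted p = 0.0331), and none in the other 3, at 1.98%, 0.248%, 0.473% and 6.75% of all genes. The median log2 fold change of the chloroplastic members was -0.02, -0.11, -0.18 and 0.14 in that order, and that of the mitochondrial members 0.29, -0.17, -0.02 and -0.21. With 1 library left out the chloroplastic median turned in sign in C_HC against C_PC (0.10 without C_PC 3 and -0.24 without C_PC 4) and in PI_HC against PI_PC (-0.06 without PI_PC 3 and 0.51 without PI_PC 4).

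Whether a filter acted differently in the experiments was tested as an interaction, the HC effect minus the PC effect. With all libraries no member passed edgeR's test for FI (1.19% of all genes called), FP (0%) or PI (0.802%), and 7, 0 and 7 members passed at an unadjusted p under 0.05, against 14.3%, 3.66% and 14.7% of all genes. All 7 for FI and all 7 for PI had a negative interaction (7.15% and 7.55% of all genes). DESeq2 called L24 for FI (-0.78 ± 0.22 SE, DESeq2 adjusted p = 0.028) and L1 for PI (-0.85 ± 0.26 SE, 0.0371), and none for FP, at 2.78%, 2.89% and 0% of all genes. The median interaction of the mitochondrial members was -0.46 for FI, -0.33 for FP and -0.46 for PI on the log2 scale, and that of the chloroplastic members -0.10, -0.18 and 0.13. The same difference between C_HC and C_PC enters all 3 interactions, so a sign they share is not a separate result for each filter. With 1 library left out the chloroplastic values ran from -0.26 to 0.12, -0.32 to 0.03 and -0.07 to 0.51, so that none kept its sign throughout.

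Without the 3 libraries in doubt, PI_PC against C_PC became the comparison in which the chloroplastic members fell together. Of the 36 tested, 31 were lower and none higher (edgeR adjusted p under 0.05), against 15.0% of all genes lower and 13.7% higher (28.8% called in all). Their median log2 fold change was -0.81, against 0.03 for all genes, and it was close in both subunits: 9 of 10 30S members fell (median -0.81) and 22 of 26 50S members (median -0.83). The genes named next were chosen after their values were seen.

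An L13 (LOC101248220, chromosome 7, 65121392 to 65125545), a large-subunit protein, had the smallest p of the class. It read 251, 206 and 266 CPM in C_PC 1 to 3 and 165, 80.6 and 73.5 CPM in PI_PC 1 to 3, with no overlap, while C_PC 4 read 87.8 CPM and PI_PC 4 268 CPM. Its log2 fold change was -1.18 ± 0.22 SE (edgeR adjusted p = 5.12e-04), and with all libraries it was not called. 30S protein 3 fell by 1.25 ± 0.25 SE on the log2 scale (edgeR adjusted p = 7.31e-04). L18 (LOC101250874), which binds 5S ribosomal RNA, also fell by 1.25 ± 0.26 SE (0.00101). S1 fell by 0.96 ± 0.19 SE (7.13e-04) and S5 by 0.54 ± 0.20 SE (0.0461, both edgeR adjusted p).

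Among copies in the same comparison, L3 fell by 0.76 ± 0.28 SE (edgeR adjusted p = 0.0421), while L3-2 had a log2 fold change of 0.14 ± 0.11 SE (0.357). Of the adjacent L17 genes, LOC101266952 fell by 1.12 ± 0.24 SE (0.00114) and LOC101267247 was at -0.53 ± 0.21 SE (0.0526). Whether the copies of a pair differ in their response was not tested. The other chloroplastic members without a call were 30S protein 3-like (-0.26 ± 0.20 SE), 50S protein 5 alpha (-0.34 ± 0.26 SE) and L21 (0.09 ± 0.52 SE).

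The unlabelled members went both ways, with 8 lower and 3 higher of 25. The largest fall was in a multi-transcript S1 (LOC101267163), which read 10.2, 8.93 and 9.08 CPM in C_PC 1 to 3 and 5.65, 1.96 and 2.62 CPM in PI_PC 1 to 3 (-1.47 ± 0.29 SE, edgeR adjusted p = 7.33e-04). The other 7 that fell were the 6 with r above 0.8 named above and an L18 (LOC101249357, -0.57 ± 0.21 SE). The 3 that rose were an L7/L12 (LOC101263560), L1 and an L7/L12 (LOC101262273, 0.46 ± 0.15 SE, 0.0269).

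LOC101263560 (chromosome 2, 54055595 to 54056506) had the smallest p of all members. It read 5.51, 5.36, 5.33 and 10.4 CPM in C_PC 1 to 4 and 9.42, 7.80, 12 and 7.88 CPM in PI_PC 1 to 4. Without C_PC 4 and PI_PC 4 the groups did not overlap (0.85 ± 0.16 SE, edgeR adjusted p = 4.18e-04). Among the mitochondrial members L21 rose by 0.49 ± 0.16 SE (edgeR adjusted p = 0.0201), and the other 3 were not called.

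Each of the 6 libraries left in C_PC and PI_PC was then left out as well, an alternative chosen after the data were seen. Between 19 (without PI_PC 3) and 33 (without PI_PC 1) of the 36 chloroplastic members were lower in these fits and none higher, with 13.9% and 37.2% of all genes called. The median log2 fold change was -0.64 and -1.17 in the same fits. In the PC group of the PI filter, PI_PC 1 (6843 CPM summed) lay nearer to C_PC than PI_PC 2 and 3 did. Leaving out only C_PC 4 gave 4 calls among the 65 members, 1 of them chloroplastic, with 14.8% of all genes called. Leaving out only PI_PC 4 also gave 4, 3 of them chloroplastic, with 4.66% of all genes called.

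**Figure D4:**
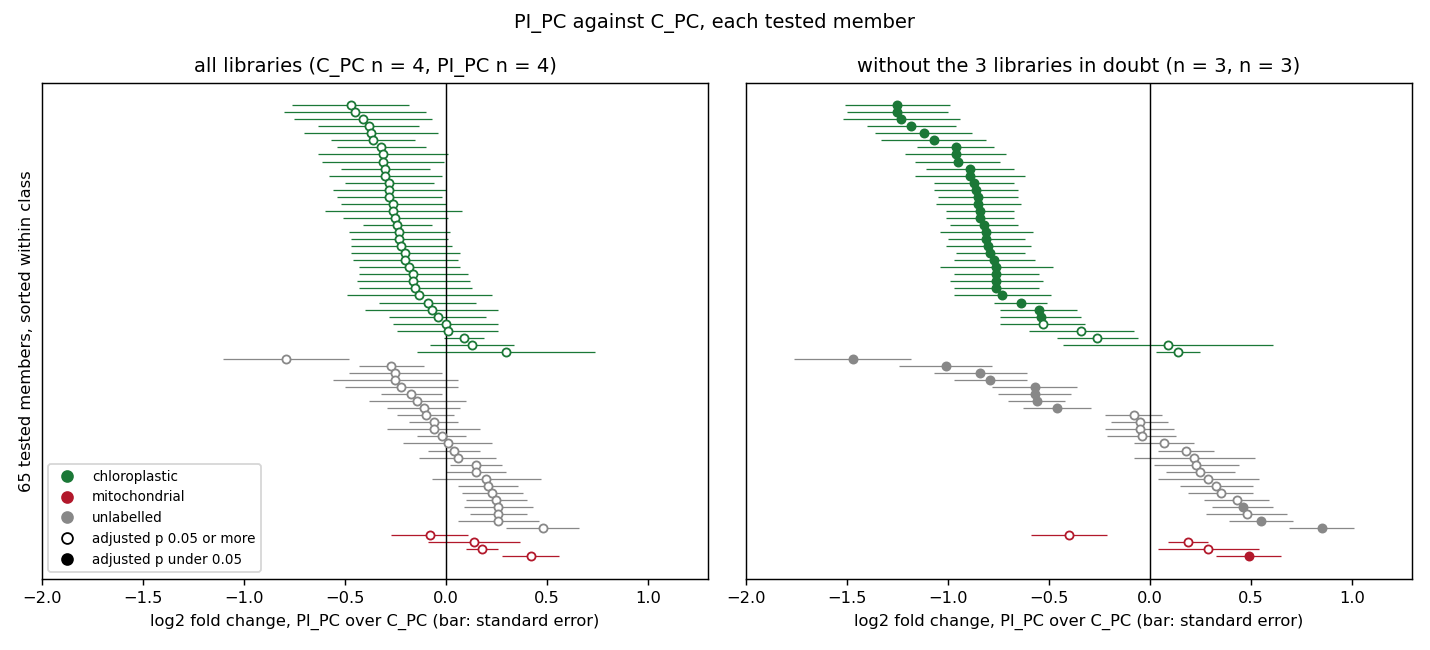
Log2 fold change of each tested member in PI_PC against C_PC (points, with standard errors), sorted within class, from all libraries (left) and without the libraries in doubt (right); filled points have an edgeR adjusted p under 0.05. No point is filled on the left, and on the right 31 of 36 chloroplastic members are filled below 0 and none above.

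Other comparisons without these libraries gave smaller shifts. In PI_HC against PI_PC 12 chloroplastic members were higher and none lower (8.12% and 7.38% of all genes, median 0.52), and in the PI interaction 12 were higher and none lower (8.93% and 8.52%, median 0.71). Mitochondrial L21 was lower in both (-0.47 ± 0.16 SE, edgeR adjusted p = 0.041, and -0.74 ± 0.21 SE, 0.0197). The unlabelled members split, with 2 higher and 2 lower in PI_HC against PI_PC (15.5% of all genes called), and 5 higher and 5 lower in the interaction (17.4%).

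FI_PC against C_PC without the libraries in doubt called 3 unlabelled members (6.35% of all genes), all higher (3.54%): L24 (0.67 ± 0.15 SE, edgeR adjusted p = 0.00919), L1 (0.60 ± 0.16 SE, 0.0214) and an L7/L12 (LOC101262273, 0.51 ± 0.14 SE, 0.0328). No chloroplastic member was called there, at a median of -0.33. L24 also rose in C_HC against C_PC (0.71 ± 0.15 SE, 0.0155, with 1.76% of all genes called and 1.13% higher), and L1 fell in PI_HC against C_HC (-0.60 ± 0.16 SE, 0.0263, with 4.36% called and 2.25% lower). In the FI interaction L24 (-0.96 ± 0.20 SE, 0.00842) and LOC101262273 (-0.73 ± 0.20 SE, 0.0352) were lower (3.48% called and 2% lower, all edgeR). No member was called in the other 6 comparisons, where 0% to 0.844% of all genes were. Over the 8 groups 23 members passed, 4 of them among the 5 named above, against 25.4% of all genes.

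Genes that work with these ribosomes were counted from lists by product name. With all libraries, no member of the lists for cytosolic ribosomal proteins (192 tested), plastid translation factors (8), mitochondrial translation factors (5), organelle transfer RNA ligases (22) or plastid transcription (8) passed in PI_PC against C_PC. Without the libraries in doubt, a fit in which 15.0% of all genes were lower and 13.7% higher, 5 of 8 plastid translation factors fell (median log2 fold change -0.70), as did 4 of 8 plastid transcription genes (-0.50) and 46 of 50 photosystem and antenna genes (-1.25). Of the organelle transfer RNA ligases 12 of 22 fell and 2 rose. Of the cytosolic ribosomal proteins 30 of 192 rose, a share near that of all genes, and none fell (0.24), and 2 of 5 mitochondrial translation factors rose and none fell (0.42). The 15 other mitochondrial ribosomal proteins, whose products the rule does not match, had 6 tested and no call (median 0.33).

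In FI_PC against C_PC without the libraries in doubt, 28 of 50 photosystem and antenna genes fell (median -0.90), with 2.81% of all genes lower. Of the 36 chloroplastic ribosomal proteins, which moved as a block, 35 had a negative log2 fold change (median -0.33, against 0.01 for all genes). None of the 36 was called (smallest edgeR adjusted p = 0.0876). The difference between the lists was not tested. The photosystem and antenna sum was 79608 to 103102 CPM in C_PC 1 to 3 and 37909 to 53765 CPM in FI_PC, without overlap. The chloroplastic ribosomal protein sums were 7359 to 9041 CPM and 5781 to 7334 CPM in the same libraries, also without overlap.

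Over the 31 libraries the chloroplastic sum went with the sums of rubisco small subunit genes (r = 0.966), plastid transcription genes (0.906), photosystem and antenna genes (0.897), transfer RNA ligases (0.856) and plastid translation factors (0.846). It went against those of mitochondrial translation factors (-0.695), the other mitochondrial ribosomal proteins (-0.474) and cytosolic ribosomal proteins (-0.414). Markers of other leaf cells moved too. The 64 epidermis and trichome markers (28 above 1 CPM, 12 at 0) summed to 4607 to 5281 CPM in C_PC 4, PI_PC 2 and PI_PC 3 and to 2453 to 3883 CPM in the other 28 libraries (r = -0.768). Markers of dividing cells (15 genes), phloem companion cells (11) and guard cells (3, of which 1 was above 1 CPM) had an r of 0.405, 0.49 and 0.446, and of 0.474, 0.341 and 0.138 without the 2 farthest libraries. The guard cell markers summed to 38.3 to 55.6 CPM in C_PC 1 to 3 and 22.2 to 34.9 CPM in PI_PC 1 to 3, without overlap. They read 29.8 CPM in C_PC 4 and 27.4 CPM in PI_PC 4, so the groups overlapped with all libraries. The epidermis and trichome markers summed to 2783 to 3052 CPM in C_PC 1 to 3 and 3224 to 5114 CPM in PI_PC 1 to 3. They read 5281 CPM in C_PC 4 and 2811 CPM in PI_PC 4. The part of these markers in the results for PI_PC and C_PC was not tested.

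**Figure D5:**
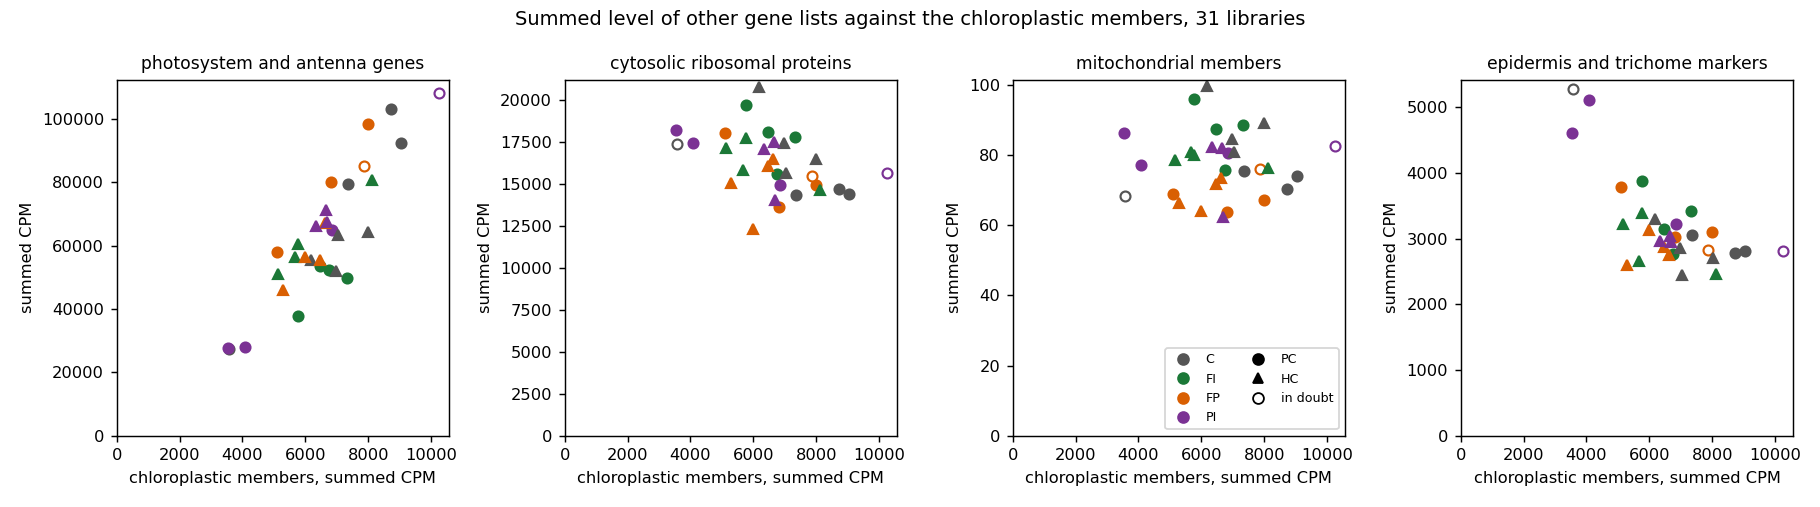
Summed CPM of 4 gene lists (vertical axes) against the summed CPM of the chloroplastic members (horizontal axes) in 31 libraries; colours give the filter, circles PC, triangles HC and open symbols the libraries in doubt. Photosystem genes rise with the chloroplastic members, the mitochondrial sum is flat at 62.4 to 99.6 CPM, and the epidermis and trichome markers are at 4607 to 5281 CPM in the 3 libraries at the left, where C_PC 4 lies under a PI_PC symbol in the first panel.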

How the data were processed

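Leaf poly(A) RNA of 31 tomato plants was sequenced on a DNBSEQ platform in 1 pool, per the labels' protocols. The authors deposited unnormalised counts. FeatureCounts 2.0.1 was run in paired, reverse-stranded mode with every exon record as a feature of its own, on RefSeq's annotation of build SL3.0, per the file headers. The submitters' processing notes name FastQC, HISAT2, featureCounts and DESeq2. Here, counts were summed per gene. The 10 records with no gene name (0.0346% of counts) were left out. All 75 members were found in RefSeq's SLM_r2.1 gene table, used for names and chromosome numbers only. Chromosome positions are those of the files (SL3.0), from the first to the last exon record of a gene.

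Groups were taken from the titles. The main test was edgeR 4.0.16's quasi-likelihood F test (R 4.3.3; TMM scaling, filterByExpr, 1 fit with 1 mean per group), with Benjamini-Hochberg adjustment over 16209 genes and a threshold of 0.05. There were 13 contrasts (6 of filters, 4 of experiments, 3 interactions) and 1 test over 8 groups. A log2 fold change is given with its standard error. CPM used TMM-scaled library sizes, and log2 levels a pseudocount of 0.5. At these depths 3 counts correspond to about 0.2 CPM. Precision at the level of a group rests on 3 or 4 plants. The p-values set a difference between groups against the spread between individual plants, estimated in 1 fit of all groups. The fits were tested on simulated data.

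Alternatives were DESeq2 1.42.0, its size factors, no filter, the compared groups alone, a replicate block, the libraries in doubt left out, and each library left out. The replicate numbers do not pair the plants (mean correlation of same-numbered libraries -0.196 to 0.113 between groups). Named members were those called in a contrast (none with all libraries), the 12 with the smallest p over 8 groups, the 5 chloroplastic and 5 mitochondrial with the highest mean CPM, and that closest to its class sum. Members and lists were chosen with earlier results of these data known.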

Additional observations from a re-analysis of the deposited data

Results flagged for a closer look

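Mitochondrial L21 (LOC101250359) read 13.5 CPM in FP_HC 1, against 17.8 to 18.3 CPM in the other libraries of that group. The gap took up a share of 0.9 of the range of the group, more than Dixon's critical value at 95% for 4 values. Of 56 sets of 4 libraries examined in this way (class sums and the 5 members that passed over 8 groups) this was the only 1, and chance alone flags about 1 set in 20.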

How the results depend on the processing

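Over the 8 groups 5 members passed with edgeR. The count was 3 with no low-count filter (S9, L1 and L21), 2 with a replicate block (S9 and L21), 23 without the 3 libraries in doubt, and 2 to 6 with each library left out in turn. With 0 members at first, leaving out the libraries in doubt gave 3 for FI_PC against C_PC, 43 for PI_PC against C_PC, 1 for PI_HC against C_HC, 1 for C_HC against C_PC, 17 for PI_HC against PI_PC, 2 for the FI interaction and 23 for the PI interaction. DESeq2 gave 1 for FI_PC against C_PC, PI_HC against C_HC, PI_HC against PI_PC and the FI and PI interactions. A fit of the compared groups alone gave 1 for PI_HC against C_HC (L1). With each library left out in turn the count ranged from 0 to 3 for FI_PC against C_PC and the FI interaction, 0 to 4 for PI_PC against C_PC, 0 to 1 for PI_HC against C_HC and C_HC against C_PC, and 0 to 2 for PI_HC against PI_PC and the PI interaction. It stayed at 0 in the other 6 contrasts. The cause was not tested.

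The libraries that raised a count from 0 when left out were C_PC 4 (7 contrasts), PI_PC 4 (3), FI_PC 1 and PI_PC 1 (2 each), and PI_PC 3, FP_PC 1, C_HC 3 and C_HC 4 (1 each). The replicate block changed no call in the 13 contrasts. DESeq2's size factors in edgeR kept every count within 1.5 times. The median of the chloroplastic members moved by more than the spread within groups only without the libraries in doubt, in 2 contrasts, and that of the mitochondrial members only without PI_HC 4, to -0.13 in PI_HC against C_HC, -0.03 in PI_HC against PI_PC and -0.28 in the PI interaction. Members with more than 1 transcript are hardly counted here, so nothing is said of 10 of the 75.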
